A study of Mus musculus with 8 samples.

Results

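Transcripts of 7 genes that act in meiotic strand exchange and crossover formation were followed through early spermatogonial differentiation: *Dmc1*, *Psmc3ip*, *Hsf2bp*, *Tex15*, *Msh4*, *Msh5* and *Mlh3*. They were chosen by name for their roles in meiotic recombination, with earlier results of these data known. All 7 are among the 5736 genes of the table analysed. RNA-seq was done on 8 libraries of male mouse germ cells: 2 of undifferentiated spermatogonia (Aal), 3 of type A1 and 3 of type A3 differentiating spermatogonia. All 3 groups are spermatogonia, so every value below was measured before meiotic entry. The question these comparisons address is when recombination transcripts change between the undifferentiated state, the onset of differentiation and its midpoint.

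All groups came from mice of the CD1:Uchl1-eGFP strain, an outcross of the *Uchl1-eGfp* transgene to outbred CD-1, in which the *Uchl1* promoter drives EGFP. Cells were sorted by EGFP, a gate that marks the germ line and does not itself separate one spermatogonial stage from the next. Spermatogenesis was synchronised by feeding bis-(dichloroacetyl)-diamine at 100 µg per g of body weight, a compound that stops cells from making retinoic acid (RA). A single RA injection of 10 µl at 10 µg/µl on postnatal day 11 then started differentiation. The labels carry the same treatment text for every library and give no age or RA status per library, so these are not stated for each group here. Cells were pooled over animals, with at least 5 pups of 1 litter for pup preparations, and the methods describe independent cell preparations.

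Meiotic recombination begins with programmed double-strand breaks. Their ends are resected, and recombinases, among them the meiotic DMC1, coat the exposed strands and invade the homologous chromosome. BRCA2 and its meiotic partners help load the recombinases, the MSH4-MSH5 dimer stabilises the joined intermediates, and an endonuclease that contains MLH3 resolves a subset of them as crossovers. These events take place in spermatocytes, after the stages sampled here.

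Values are FPKM, fragments per kilobase of gene scaled to the reads of each library, so levels of different genes can be compared per length. Differences were tested with limma on log2(FPKM + 1), and p-values were adjusted over all genes tested. A gene "rose" or "fell" where its adjusted p was at most 0.01, and it was "called" where its absolute log2 fold change was also above 1. Recovered library totals ran from 18276164 to 27316451 reads, and the table holds 34.0% to 34.4% of them. *Uchl1* was the highest gene of the table in all 8 libraries, at 4047.7 to 7269.9 FPKM, and *Nanos3*, a marker of undifferentiated spermatogonia, was at 91.4 and 111.7 FPKM in Aal against 12.2 to 21.7 FPKM in A1. Within A1, library A1-3 stood apart. The summed level of 9 of 19 Sertoli cell markers was 381.4 FPKM in A1-3, against a lowest sum of 55.6 FPKM within A1, 38.7 to 49.9 FPKM in Aal and 199.8 to 371.7 FPKM in A3. The macrophage marker *Lyz2* was also highest in A1-3, at 8.28 FPKM, as were the Leydig and myoid marker sums, at 8.39 and 6.53 FPKM. Spermatocyte and spermatid markers (4 of 14 in the table) summed to 19.8 to 22.4 FPKM in Aal, 14.5 to 20.3 FPKM in A1 and 19.1 to 24.5 FPKM in A3. Within that sum *Meig1* was at 4.40 to 5.98 FPKM in Aal, 2.28 to 4.24 FPKM in A1 and 9.57 to 13.0 FPKM in A3, *Ldhc* at 4.43 and 4.77 FPKM in Aal, 1.34 to 1.54 FPKM in A1 and 1.84 to 3.42 FPKM in A3, *Clgn* at 5.86 to 14.0 FPKM and *Acr* at 0.890 FPKM or less over all libraries. The part of any of these other cell types in the results was not tested. The members' A1 results are therefore also given without A1-3. In sorted bulk RNA, fewer cells that express a gene and less RNA per cell cannot be told apart.

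The promoters of the members that changed most are shown first, with that of *Msh5*, since its product works only as the partner of MSH4. The windows span 250 bases before to 50 bases after the RefSeq start site and were read from the GRCm38.p6 build, where 6 of the 7 members had one. The *Dmc1* window is chr15:79605060-79605359, that of *Psmc3ip* chr11:101095386-101095685, that of *Hsf2bp* chr17:32034459-32034758, that of *Msh4* chr3:153904842-153905141 and that of *Msh5* chr17:35046573-35046872, all on the minus strand. Capitals mark matches on either strand to any of 8 motifs searched.
Dmc1: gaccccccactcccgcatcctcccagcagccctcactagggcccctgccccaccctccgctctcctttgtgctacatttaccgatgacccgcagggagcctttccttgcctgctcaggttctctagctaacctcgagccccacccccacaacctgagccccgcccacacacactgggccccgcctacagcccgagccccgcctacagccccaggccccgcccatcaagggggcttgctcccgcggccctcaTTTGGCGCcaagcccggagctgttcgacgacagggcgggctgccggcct
Psmc3ip: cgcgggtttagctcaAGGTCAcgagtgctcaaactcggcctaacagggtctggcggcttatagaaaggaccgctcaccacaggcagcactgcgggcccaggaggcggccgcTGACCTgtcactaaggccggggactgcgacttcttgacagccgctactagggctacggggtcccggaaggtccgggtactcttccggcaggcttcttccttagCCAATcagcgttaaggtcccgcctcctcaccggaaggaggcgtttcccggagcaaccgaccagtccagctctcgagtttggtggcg
Hsf2bp: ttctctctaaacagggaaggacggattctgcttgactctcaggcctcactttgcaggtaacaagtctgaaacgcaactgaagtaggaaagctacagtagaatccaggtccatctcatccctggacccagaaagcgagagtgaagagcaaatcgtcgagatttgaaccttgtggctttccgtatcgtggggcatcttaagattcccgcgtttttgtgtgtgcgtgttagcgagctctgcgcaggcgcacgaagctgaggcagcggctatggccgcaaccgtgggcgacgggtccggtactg
Msh4: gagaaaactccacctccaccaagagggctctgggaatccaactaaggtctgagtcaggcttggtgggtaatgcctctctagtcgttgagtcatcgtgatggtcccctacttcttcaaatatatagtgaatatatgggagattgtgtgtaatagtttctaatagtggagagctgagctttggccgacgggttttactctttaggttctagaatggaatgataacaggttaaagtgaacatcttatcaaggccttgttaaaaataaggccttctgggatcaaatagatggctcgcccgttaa
Msh5: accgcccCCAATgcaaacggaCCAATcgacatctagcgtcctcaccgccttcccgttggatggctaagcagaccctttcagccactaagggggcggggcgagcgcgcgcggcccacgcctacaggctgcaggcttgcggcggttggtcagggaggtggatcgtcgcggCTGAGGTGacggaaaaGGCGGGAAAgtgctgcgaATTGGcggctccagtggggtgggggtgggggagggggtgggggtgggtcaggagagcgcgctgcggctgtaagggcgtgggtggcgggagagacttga
The motifs were TTTCCCGC, TTTGGCGC and GGCGGGAA (sites of E2F-family factors), CACGTG (an E-box), CNCCTCAG (a motif of STRA8, a protein induced by RA in germ cells), AGGTCA (a core motif of retinoid receptors), CCAAT and TGACGTCA (the cAMP response element). The *Dmc1* window holds TTTGGCGC from base 252, next to the start site. Of all 32851 windows, 0.514% hold that motif. The *Psmc3ip* window holds AGGTCA at bases 16 and 112, as do 16.3% of all windows, and CCAAT at base 215, as do 37.4%. The *Msh5* window holds CNCCTCAG at base 169 (7.94% of windows) and, from base 185, GGCGGGAA (2.19%) overlapping TTTCCCGC on the other strand (1.07%), beside 3 copies of CCAAT. The windows of *Hsf2bp* and *Msh4* hold none of the 8 motifs. These windows also differ in composition. GC content was 69.0% for *Dmc1*, 67.3% for *Msh5*, 62.7% for *Psmc3ip*, 53.7% for *Hsf2bp* and 43.3% for *Msh4*, against a median of 52.7% over all windows. The ratio of observed to expected CpG was 0.934 for *Hsf2bp* and 0.436 for *Msh4*, the highest and lowest of the 5, with a median of 0.384 over all windows. A motif match describes letters only.

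From Aal to A1, the members went in opposite directions. Transcripts of the recombinase *Dmc1* and its cofactor *Psmc3ip* rose, those of the BRCA2 partner *Hsf2bp* and the crossover factor *Msh4* fell, and *Msh5*, *Mlh3* and *Tex15* did not pass the test. Thus 4 of 7 members passed, 2 higher and 2 lower. Of all 4632 genes tested, 27.0% passed, 13.0% higher and 14.0% lower. Only *Dmc1* of the 7 was called, where 9.15% of all genes were called. The median log2 fold change was -0.09 over the 7 members and 0.03 over all genes tested.

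**Figure D1:**
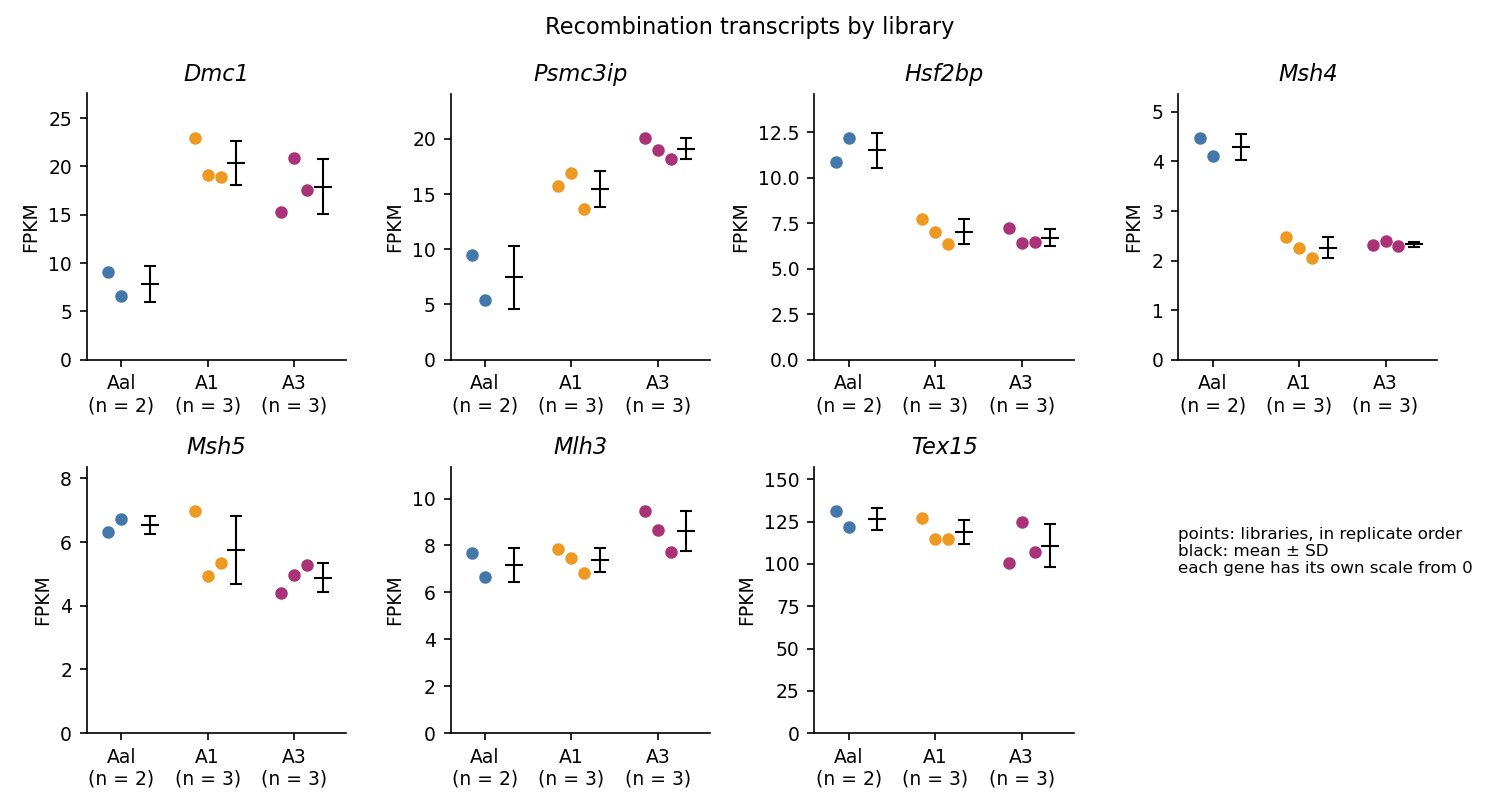
FPKM (y axis, from 0, own scale per gene) of the 7 transcripts in the 8 libraries, grouped as Aal, A1 and A3 on the x axis; points are libraries in replicate order and black marks are means ± SD. *Dmc1* and *Psmc3ip* stand higher in all 6 differentiating libraries than in both Aal libraries, *Hsf2bp* and *Msh4* stand lower, and *Tex15* lies between 100.5 and 131.1 FPKM throughout.

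*Dmc1* encodes the recombinase that acts only in meiosis. The gene lies on the minus strand at chr15:79391930-79435529 (mm9) with 14 merged exon blocks. Its level was 9.12 and 6.55 FPKM in the Aal libraries, 23.0, 19.1 and 18.9 FPKM in A1, and 15.2, 20.9 and 17.5 FPKM in A3. Every differentiating library lay above both undifferentiated ones, and A1 and A3 overlapped. The mean was 7.84 ± 1.82 FPKM in Aal (SD, n = 2), 20.3 ± 2.27 FPKM in A1 (n = 3) and 17.9 ± 2.85 FPKM in A3 (n = 3). Against Aal, A1 had a log2 fold change of 1.28 (SE 0.15, 95% interval 0.94 to 1.63, limma adjusted p = 0.000591), and the ratio of the means was 2.59. The rise was 1.33 without A1-3 (adjusted p = 0.000105). The Aal libraries differed beyond counting error, with 489 *Dmc1* reads (95% Poisson interval 446.6 to 534.3) in Aal-1 and 365 (328.5 to 404.4) in Aal-2, and the fold change was 1.07 without Aal-2 and 1.49 without Aal-1.

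*Psmc3ip* encodes HOP2, which with MND1 helps DMC1 capture the homologous duplex. It spans chr11:100953137-100956750 (mm9, minus strand). Its level was 9.46 and 5.45 FPKM in Aal, 15.8, 16.9 and 13.7 FPKM in A1, and 20.1, 19.0 and 18.2 FPKM in A3. The groups stood in the order Aal, A1, A3 with no overlap, at means of 7.45 ± 2.83, 15.5 ± 1.65 and 19.1 ± 0.944 FPKM. The A1 rise was 1.00 (SE 0.20, interval 0.52 to 1.47, limma adjusted p = 0.0065), just short of the fold threshold. It rested on the wide pair of Aal libraries. Without Aal-2 it was 0.65 and missed the threshold (adjusted p = 0.0304), and without Aal-1 it was 1.35 (adjusted p = 0.00454). Leaving out A1-1 (0.98, adjusted p = 0.0179) or A1-2 (0.93, adjusted p = 0.0204) moved the fold change little but took the adjusted p above the threshold. Without A1-3 the fold change was 1.08 (adjusted p = 0.00141). Exons of *Psmc3ip* share 385 bases with *Mlx* on the opposite strand. The kit was stranded but no source says whether counting used strand, so the level is uncertain to that extent. *Mlx* itself was at 15.7 and 14.9 FPKM in Aal, 13.3, 15.8 and 14.3 FPKM in A1 and 15.0, 11.7 and 11.1 FPKM in A3, overlapping between Aal and each other group.

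*Hsf2bp* encodes a protein, also called MEILB2, that brings BRCA2 to meiotic breaks. The gene is on the minus strand at chr17:32081714-32171453 (mm9). Its level was 10.8 and 12.2 FPKM in Aal, 7.71, 7.04 and 6.37 FPKM in A1, and 7.24, 6.41 and 6.45 FPKM in A3. Both Aal libraries lay above all 6 others, and A1 and A3 overlapped. Means were 11.5 ± 0.955, 7.04 ± 0.667 and 6.70 ± 0.464 FPKM. In A1 *Hsf2bp* fell by 0.64 on the log2 scale (SE 0.11, interval -0.91 to -0.37, limma adjusted p = 0.00391), to 0.612 of the Aal mean. Without A1-3 the log2 fold change was -0.58 (adjusted p = 0.00342). Leaving out Aal-1, Aal-2 or A1-2 kept it between -0.72 and -0.56 but raised the adjusted p to 0.0209, 0.0489 and 0.0148, above the threshold.

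*Tex15* encodes a large germ cell protein needed for repair of meiotic breaks, and lies on the plus strand at chr8:34627210-34696054 (mm9). No RefSeq window was given for it. It was by far the most abundant of the 7 per length, at 131.1 and 121.7 FPKM in Aal, 127.3, 114.9 and 114.9 FPKM in A1, and 100.5, 124.7 and 107.3 FPKM in A3. The 3 groups overlapped. Its mean of 126.4 FPKM in Aal was 11 times that of the next member, and 119.0 FPKM in A1 and 110.9 FPKM in A3 were 5.85 and 5.80 times. These means ranked 113, 157 and 179 among all 5736 genes. The log2 fold change in A1 was -0.09 (SE 0.07, interval -0.26 to 0.09, limma adjusted p = 0.388; -0.06 without A1-3), an interval that holds no change as large as those of the 4 members that passed. With 16014 to 26612 reads per library, counting error was small beside the spread between libraries.

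*Msh4* and *Msh5* encode the subunits of one dimer, MutS-gamma, which is specific to meiosis. *Msh4* lies at chr3:153520111-153569102 and *Msh5* at chr17:35165550-35183690 (mm9, both minus strand). *Msh4* was at 4.48 and 4.10 FPKM in Aal, 2.47, 2.26 and 2.05 FPKM in A1, and 2.32, 2.39 and 2.28 FPKM in A3. Both Aal libraries were above all others, at a mean of 4.29 ± 0.265 FPKM against 2.26 ± 0.212 FPKM in A1 and 2.33 ± 0.0528 FPKM in A3. It was the lowest member in every group, on 139 to 401 reads per library. In A1 *Msh4* fell by 0.70 on the log2(FPKM + 1) scale (SE 0.13, interval -1.0 to -0.40, limma adjusted p = 0.00427), to 0.527 of the Aal mean. The pseudocount shrinks a change at this level, and on recovered reads with voom the log2 fold change was -0.92 (adjusted p = 0.00138). It was -0.65 without A1-3 (adjusted p = 0.00522). Leaving out Aal-1, Aal-2 or A1-2 raised the adjusted p to 0.0389, 0.0307 and 0.0181, also above it.

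*Msh5* was at 6.33 and 6.72 FPKM in Aal, 6.96, 4.94 and 5.36 FPKM in A1, and 4.39, 4.96 and 5.29 FPKM in A3. The A1 libraries lay on both sides of Aal, and the A3 libraries were all below it. The log2 fold change in A1 was -0.17 (SE 0.15, interval -0.52 to 0.19, limma adjusted p = 0.417), and -0.13 without A1-3. That interval reaches -0.52 and the one of *Msh4* reaches -0.40, so they overlap, and the difference between the partners was not tested.

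*Mlh3* encodes a subunit of the crossover endonuclease and spans chr12:86575479-86611541 (mm9, minus strand). It was at 7.69 and 6.67 FPKM in Aal, 7.83, 7.46 and 6.82 FPKM in A1, and 9.45, 8.66 and 7.72 FPKM in A3. Aal and A1 overlapped, and the A3 libraries were all above Aal. The log2 fold change in A1 was 0.03 (SE 0.11, interval -0.24 to 0.30, limma adjusted p = 0.838), and 0.08 without A1-3. Its sign turned under median-ratio scaling (-0.01).

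Between A1 and A3, no member rose or fell by limma, where 7.60% of 4590 genes passed and 1.50% were called. At an unadjusted p under 0.05 the count was 1 of 7, and voom on recovered reads passed 0. The 1 was *Psmc3ip*, higher in all A3 than in all A1 libraries, with a log2 fold change of 0.29 (SE 0.09, interval 0.08 to 0.50, limma adjusted p = 0.059). That value was 0.21 without A1-3 (adjusted p = 0.129). *Dmc1* changed by -0.18 (SE 0.12, interval -0.47 to 0.11, adjusted p = 0.365), and *Mlh3* by 0.20 (SE 0.10, interval -0.04 to 0.44, adjusted p = 0.228). Without A1-3 these were -0.23 (adjusted p = 0.307) and 0.15 (adjusted p = 0.435). The other 4 log2 fold changes lay from -0.19 for *Msh5* to 0.03 for *Msh4*. Without A1-3 they lay from -0.23 for *Msh5* to -0.02 for *Msh4*, whose sign thus turned. The A1 libraries that remain without A1-3 had lower Sertoli marker sums than every A3 library. The part of this in these values was not tested. The medians were -0.06 over the members and 0.01 over all genes tested.

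Over the whole interval, A3 against Aal, *Dmc1* and *Psmc3ip* rose, *Hsf2bp* and *Msh4* fell, and the other 3 did not pass. Of 4687 genes tested, 43.7% passed, 21.9% higher and 21.8% lower, and the 4 of 7 members, 2 in each direction, are to be read against that background. Called were 2 of 7 members, *Dmc1* and *Psmc3ip*, and 17.6% of all genes. This comparison shares its libraries with the other 2 and is not independent of them.

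**Figure D2:**
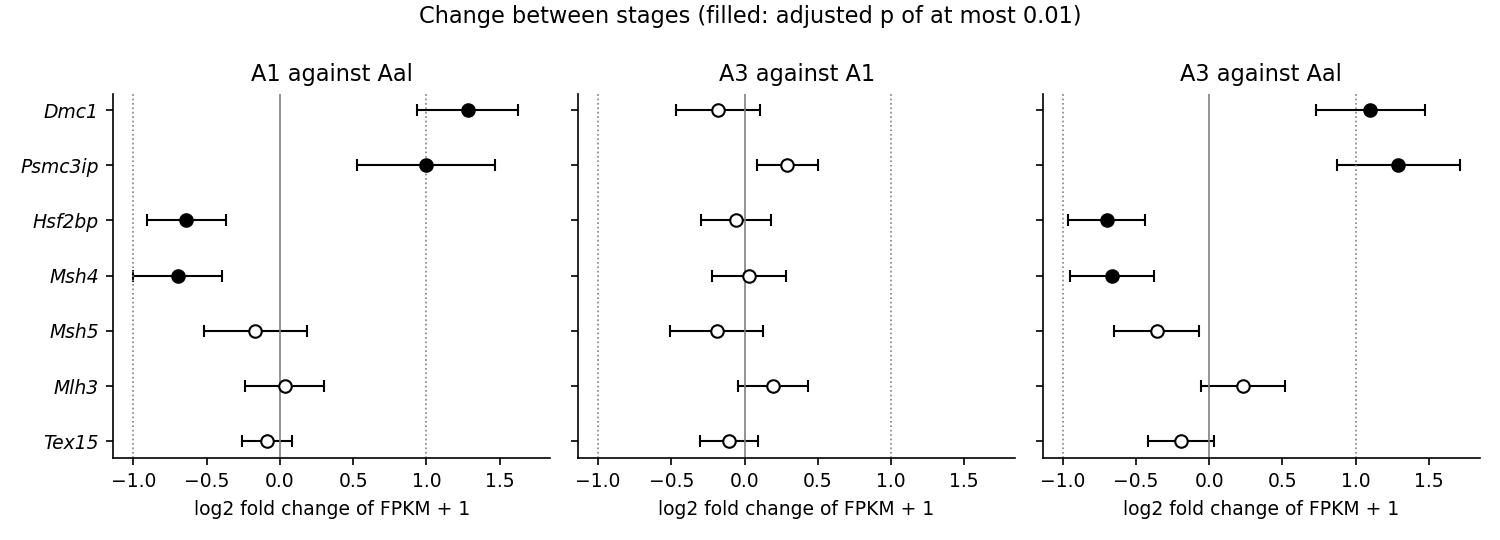
Log2 fold change of FPKM + 1 (x axis) with its 95% interval from limma for each gene (rows) in A1 against Aal, A3 against A1 and A3 against Aal; filled points have an adjusted p of at most 0.01 and dotted lines mark the fold threshold of 1 in either direction. Both comparisons with Aal have 4 filled points, 2 on each side of 0, and A3 against A1 has 0.

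For *Psmc3ip* the A3 rise was 1.29 (SE 0.18, interval 0.87 to 1.71, limma adjusted p = 0.000503), with a ratio of means of 2.56. For *Dmc1* it was 1.1 (SE 0.16, interval 0.73 to 1.48, adjusted p = 0.000617), with a ratio of 2.28. Both rises passed the p threshold with any library left out, but not always the fold threshold: without Aal-2 they were 0.94 and 0.89, and without A3-2 that of *Dmc1* was 0.99. *Hsf2bp* fell by 0.70 (SE 0.11, adjusted p = 0.00101), a fall that lost the p threshold without Aal-2 (0.0179). *Msh4* fell by 0.67 (SE 0.12, adjusted p = 0.00209), and lost it without Aal-1 (0.0235) or Aal-2 (0.0145) and, narrowly, without A3-2.

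The remaining members were close to the edge or inside the spread. *Msh5* had a log2 fold change of -0.36 (SE 0.13, interval -0.65 to -0.07, limma adjusted p = 0.0385), with all A3 libraries below both Aal ones. *Mlh3* was at 0.23 (SE 0.13, interval -0.06 to 0.52, adjusted p = 0.146), with all A3 libraries above both Aal ones. *Tex15* was at -0.19 (SE 0.10, interval -0.41 to 0.03, adjusted p = 0.122) with overlap. The A3 libraries also had a higher Sertoli and a lower endothelial marker sum than Aal, and the part of this in the A3 differences was not tested.

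The order of the levels changed with these shifts. In Aal, *Tex15* was followed by *Hsf2bp*, then by *Dmc1*, *Psmc3ip*, *Mlh3* and *Msh5*, in which each gene's range overlapped that of the next, and last by *Msh4*. In A1 the order was *Tex15*, *Dmc1*, *Psmc3ip*, then *Mlh3*, *Hsf2bp* and *Msh5* with overlapping neighbours, and *Msh4*. In A3 *Psmc3ip* and *Dmc1* overlapped in the places after *Tex15*, and *Mlh3*, *Hsf2bp*, *Msh5* and *Msh4* followed without overlap. *Hsf2bp* thus went from above *Dmc1* in both Aal libraries to below it in all 6 others.

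Ratios within a library compare partners without any scaling between libraries. The FPKM of *Dmc1* over that of *Psmc3ip* was 0.965 and 1.2 in Aal, 1.46, 1.13 and 1.38 in A1, and 0.759, 1.1 and 0.962 in A3. The 2 Aal values lay within the range of the other libraries. All A1 ratios were above all A3 ratios, but narrowly, at 1.13 in A1-2 and 1.1 in A3-2. The FPKM of *Msh4* over that of its dimer partner *Msh5* was 0.708 and 0.610 in Aal, 0.355, 0.457 and 0.383 in A1, and 0.528, 0.482 and 0.432 in A3. Both Aal ratios were above the other 6. The FPKM of *Mlh3* over *Msh4*, a late against an earlier crossover factor, was 1.72 and 1.63 in Aal, 3.17, 3.3 and 3.33 in A1, and 4.08, 3.63 and 3.38 in A3. The log2 ratios were 0.74 ± 0.056 in Aal (SD, n = 2), 1.71 ± 0.038 in A1 (n = 3) and 1.88 ± 0.136 in A3 (n = 3). Aal stood apart from both other groups. A1 and A3 did not overlap but were close, at 3.33 in A1-3 and 3.38 in A3-3. There the counting error of *Msh4* alone was 8.48% and 6.84%. The ratios are descriptions of the same values and were not tested.

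**Figure D3:**
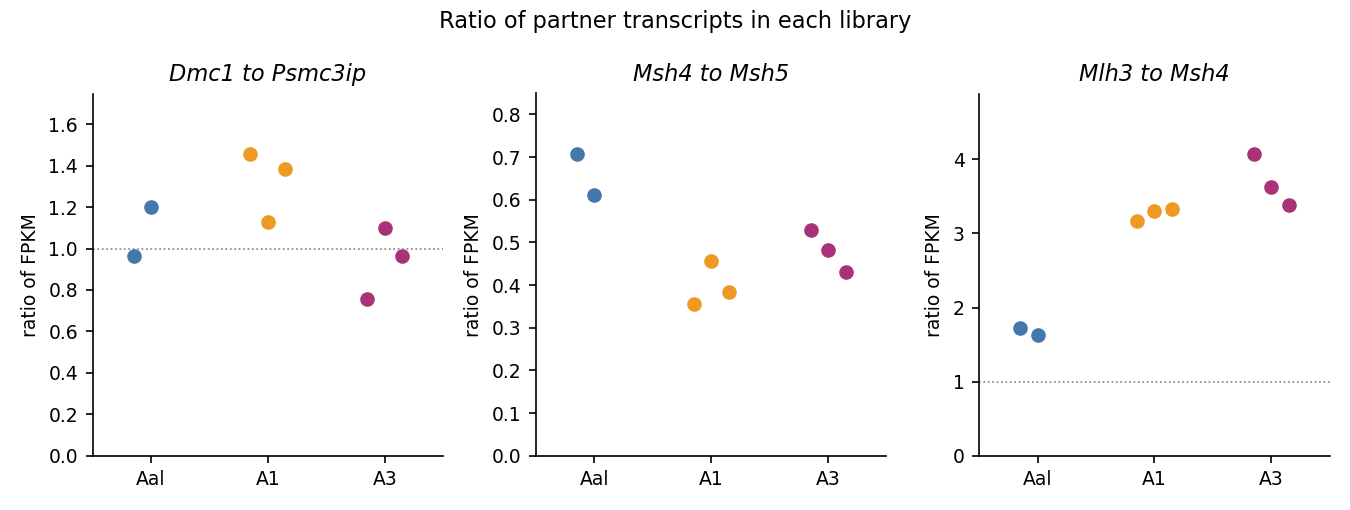
FPKM of the first gene divided by that of the second (y axis, from 0) in each library, for *Dmc1* to *Psmc3ip*, *Msh4* to *Msh5* and *Mlh3* to *Msh4*; points are libraries in replicate order and the dotted line marks equal FPKM. The Aal points of *Mlh3* to *Msh4* are at 1.63 and 1.72 and all others at 3.17 or more. For *Dmc1* to *Psmc3ip* the Aal points overlap both other groups. All A1 points there lie above all A3 points, the nearest at 1.13 and 1.1.

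Across the 8 libraries, log2(FPKM + 1) of *Hsf2bp* and *Msh4* varied together (Pearson r = 0.955), as did that of *Dmc1* and *Psmc3ip* (r = 0.879), and *Dmc1* and *Hsf2bp* varied oppositely (r = -0.913). *Msh4* and *Msh5* had r = 0.628. These values include the differences between groups. Among genes with a mean of at least 5 FPKM, the profiles most like those of the members were *Igfbp3* (r = 0.987) and *Polr2k* (0.981) for *Dmc1*, and *Nme2* (0.980) and *2310033P09Rik* (0.979) for *Psmc3ip*. They were *Fbxo41* (0.996) and *Extl3* (0.994) for *Hsf2bp*, and *Tnrc18* (0.996) and *Sphk1* (0.994) for *Msh4*. For the members that did not pass they were *Fbxo3* (0.925) and *Dph6* (0.921) for *Msh5*, *Cox7c* (0.972) and *Nmd3* (0.951) for *Mlh3*, and *Ice2* (0.882) and *Lmbr1* (0.853) for *Tex15*. Each was picked as the best of 3015 or 3016 genes over only 8 points.

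Other genes of meiotic recombination were grouped in 4 lists of 95 genes, of which 37 are in the table. From Aal to A1, 11 of 35 tested rose and 3 fell, and 7 were called, beside the 27.0% of all genes that passed and 9.15% that were called. Without A1-3 the number called was 8. From A1 to A3, 0 of 36 rose and 2 fell by limma, and 0 were called, beside 7.60% of all genes that passed and 1.50% that were called. At an unadjusted p under 0.05 there were 9, and voom passed 2 and called 0. Counts at an unadjusted p or passed by voom, here and elsewhere, have no share of all genes beside them and are descriptions only. From Aal to A3, 11 of 36 rose and 3 fell, with 7 called, beside 43.7% and 17.6% of all genes. The counts of A3 against A1 and of A3 against Aal are near their shares and are no result about the lists. Median log2 fold changes were 0.04, 0.09 and 0.21 over the lists, and 0.03, 0.01 and 0.05 over all genes tested.

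**Figure D4:**
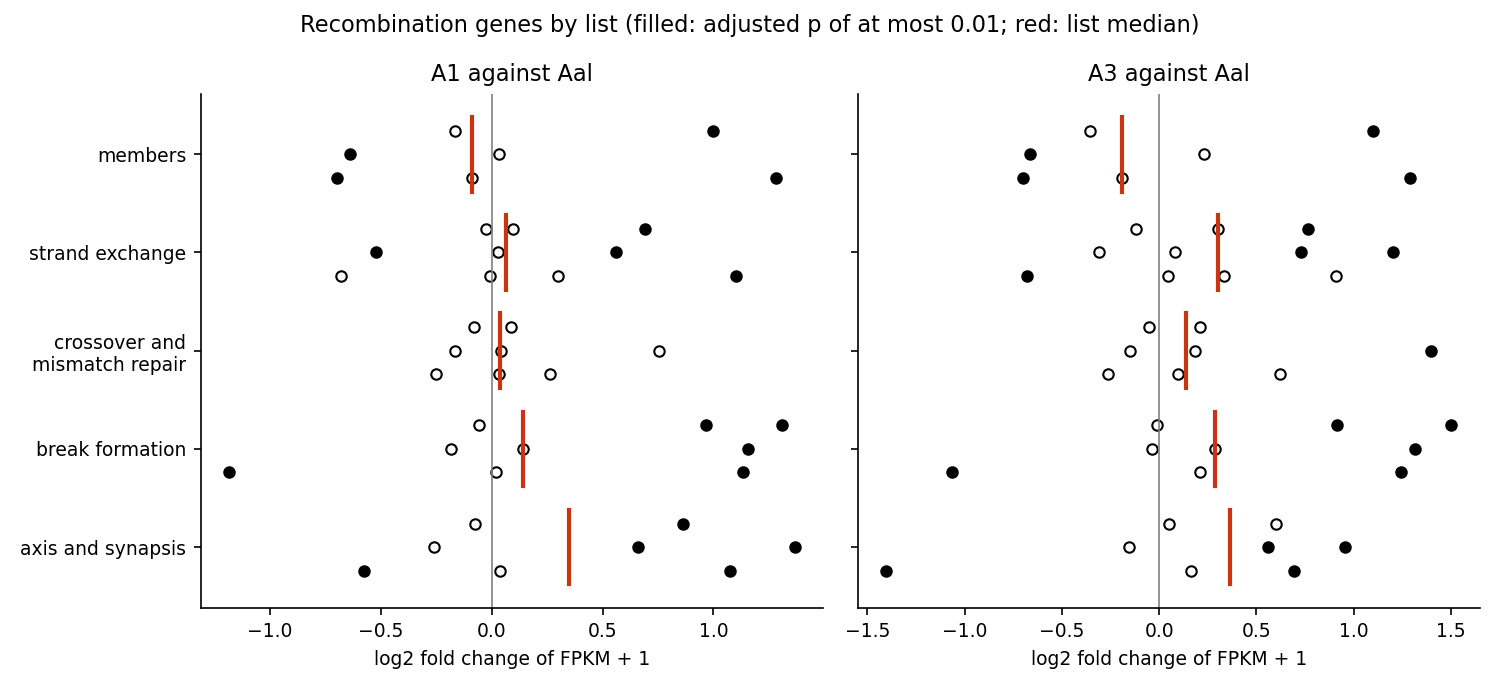
Log2 fold change of FPKM + 1 (x axis) of the 7 members and of 4 lists of other recombination genes (rows) in A1 against Aal and A3 against Aal; each point is a gene, filled where the adjusted p was at most 0.01, and red lines are medians over the genes tested. In the crossover and mismatch repair list 0 of 8 points are filled in A1 and 1 of 8 in A3, and in the break formation list 5 of 9 are filled in both. Of all genes tested, 27.0% passed in A1 and 43.7% in A3, and differences between lists were not tested.

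Among strand exchange genes, 3 of 10 rose in A1 and 1 fell, where 27.0% of all genes passed, and only *Rad51ap1* was called. *Rad51ap1*, which stimulates strand invasion by DMC1, was at 10.2 and 8.40 FPKM in Aal, 21.8, 20.9 and 20.5 FPKM in A1 and 27.7, 21.2 and 19.7 FPKM in A3. Its log2 fold change was 1.1 in A1 (SE 0.10, limma adjusted p = 0.000287) and 1.2 in A3 (SE 0.15, adjusted p = 0.000266), both against Aal. As with *Dmc1* and *Psmc3ip*, all 6 differentiating libraries were above both Aal libraries. *Fignl1*, which takes recombinase off the strands, rose by 0.69 in A1, and *Rad54b*, a motor protein of strand exchange, by 0.56. *Brca2*, the loader that HSF2BP binds, was at 31.0 and 29.4 FPKM in Aal and 28.7 to 32.3 FPKM in A1, with a log2 fold change of -0.01 (adjusted p = 0.935). In A3 against Aal 3 of 11 rose and 1 fell, where 43.7% of all genes passed. The 1 was *Mcmdc2*, a helicase family member needed for meiotic repair, which fell by 0.68. In A1 its log2 fold change was also -0.68 but did not pass (limma adjusted p = 0.0149), and the gene that fell there was another.

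Of the crossover and mismatch repair genes, 0 of 8 passed by limma in A1, where 27.0% of all genes did, with 2 at an unadjusted p under 0.05 and 1 by voom. Between A1 and A3 0 of 8 passed, beside 7.60% of all genes, with 4 at an unadjusted p under 0.05 and 0 by voom. Against Aal, A3 had 1 of 8, beside 43.7% of all genes. It was *Rmi2*, a subunit of the BLM dissolvasome. No test of the difference between lists was made. *Rmi2* was at 0.49 and 0.26 FPKM in Aal and 2.77, 2.51 and 2.53 FPKM in A3, a log2 fold change of 1.40 (SE 0.13, limma adjusted p = 7.66e-05). Both Aal levels were under the filter of 1 FPKM. *Rmi2* thus entered this test only through the A3 libraries, where it is high, and its pass is a description only. Among these 8 and the 3 members, only *Msh4* thus passed the p threshold as lower in either comparison with Aal. Genes short of it are not shown to be unchanged. *Rtel1* of this list was also lower in all A1 and all A3 libraries than in Aal (-0.25 and -0.26, limma adjusted p = 0.0346 and 0.0163), and *Msh5* in all A3 libraries.

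Break formation genes changed in both directions. In A1 4 of 9 rose and 1 fell, and the same counts held in A3, beside 27.0% and 43.7% of all genes. *Mei1*, needed for break formation, was at 5.39 and 3.95 FPKM in Aal, 12.2, 13.3 and 13.3 FPKM in A1 and 12.4, 16.1 and 16.6 FPKM in A3, with log2 fold changes against Aal of 1.31 and 1.5 (adjusted p = 0.000388 and 0.000129). *Iho1*, listed as *Ccdc36*, which recruits the break machinery to chromosome axes, rose by 1.13 and 1.31. *Hells*, a chromatin remodeller that works with the hotspot factor PRDM9, rose by 1.15 and 1.24. *Spo11*, the enzyme that cuts the breaks, went the other way. It was at 12.5 and 12.2 FPKM in Aal, 7.10, 3.98 and 4.02 FPKM in A1 and 4.39, 5.94 and 5.93 FPKM in A3, with log2 fold changes of -1.18 (SE 0.22, limma adjusted p = 0.00432) and -1.06 (SE 0.14, adjusted p = 0.000365). Like *Hsf2bp* and *Msh4*, *Spo11* was lower in all 6 differentiating libraries than in both Aal libraries.

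Of the axis and synapsis genes, 2 of 8 passed from A1 to A3, beside 7.60% of all genes, and no gene of the other lists did. In A1 4 of 8 rose and 1 fell, and in A3 against Aal 3 rose and 1 fell, beside the same 27.0% and 43.7% of all genes. *Rec8*, the meiotic cohesin, was at 11.5 and 9.23 FPKM in Aal, 23.8, 32.1 and 29.0 FPKM in A1 and 14.9, 17.1 and 15.1 FPKM in A3. It rose by 1.37 in A1 (SE 0.14, limma adjusted p = 0.00042) and fell by 0.80 from A1 to A3 (SE 0.11, adjusted p = 0.00371). *Rad21l*, another meiotic cohesin subunit, was at 15.9 and 15.1 FPKM in Aal, 9.09, 10.2 and 11.02 FPKM in A1 and 5.76, 4.94 and 5.04 FPKM in A3, falling by 0.83 from A1 to A3 (adjusted p = 0.00269). *Syce2*, of the central element, rose by 1.07 in A1 and by 0.96 in A3 against Aal. None of the 7 members had a change from A1 to A3 that passed, and *Dmc1* lay within its own spread between these stages.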

How the data were processed

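Bulk RNA-seq of 8 libraries was analysed in 3 groups taken from the sample titles. The authors trimmed reads with cutadapt 1.9, aligned them to mm9 with STAR 2.5.2b, assigned them to genes with featureCounts and tested counts with DESeq2. The deposited FPKM table, with 1 column per library, was the only data used. Its annotation and counting strand are not given in the sources used here. Each pair of groups was tested two-sided as log2(FPKM + 1) with limma 3.58.1 (eBayes with trend, R 4.3.3) on genes at 1 FPKM or more in at least 2 of the libraries compared, with Benjamini-Hochberg adjustment over all genes tested. Whole reads and library totals were recovered from the FPKM values and used for counting intervals, which cover counting error only, and for voom. 100% of values were rebuilt within a relative error of 0.0001. Scripts were tested on simulated data. Replicate libraries differed far beyond sampling noise (chi-square of 5.71 to 21.8 per gene) and were kept as single samples. Fold changes on this scale understate those of low genes.

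The 7 members and the lists were chosen with earlier results of these data known. Named are the members, list genes called in at least 1 comparison, the 2 genes most like each member, the marker genes and *Uchl1*. Some genes of the lists are not reported by name here. Other list genes (*Brca2*, *Fignl1*, *Rad54b*, *Mcmdc2*, *Rtel1*) were named after their values were seen, as were *Mlx* for its overlap with *Psmc3ip* and those motifs that matched. Positions of genes are from GENCODE M1 on mm9 and promoter windows from RefSeq on GRCm38.p6, matched by symbol. Alternatives were another pseudocount, filter, scaling, threshold, variance model and sample set, a replicate block, voom, and each library left out.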

Additional observations from a re-analysis of the deposited data

How the results depend on the processing

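Another p threshold, another filter, no variance trend or a fit of all 8 libraries leaves a fold change as it was, so its direction could not turn there. Of 319 alternative values of the members' log2 fold changes, 297 kept their direction and side of the p threshold. Of the others, 16 lost that threshold, 2 gained it and 4 changed sign, and the fold threshold was not part of these counts. Those 4 were *Mlh3* in A1 against Aal (-0.0107 with median-ratio scaling and -0.0561 to 0.1244 over libraries left out) and *Msh4* in A3 against A1 (-0.0150 to 0.0788 over libraries left out), none past the threshold. All 21 group levels moved by less than 1 SD under median-ratio scaling. *Psmc3ip* in A1 against Aal had an adjusted p of 0.0102 with no filter and 0.0129 with no variance trend, and *Tex15* in A3 against Aal passed under quantile normalisation (-0.41, adjusted p = 0.00569).

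Called members in A1 against Aal numbered 1, and 4 with no fold threshold. They numbered 2 with a pseudocount of 0.1 and with voom, since *Psmc3ip* was then past the fold threshold. In A3 against Aal they numbered 2, and 4 with no fold threshold. With no fold threshold, called list genes went from 0 to 2 in A3 against A1 and from 7 to 14 in both other comparisons. With 1 A1 library left out, 1 or 2 members were called in A1 against Aal, beside 387 to 474 of 4632 genes. Called list genes then numbered 7 or 8. With 1 A3 library left out, 1 or 2 members were called in A3 against Aal, beside 796 to 878 of 4687 genes. Members past the p threshold ranged from 1 to 4 and from 3 to 4, with no share of all genes beside them, as descriptions only. In A1 against Aal the lowest count past p was reached without A1-2, and that of called members without A1-1 or A1-2. Without Aal-1 or Aal-2, Aal is a single library assumed to vary like the others, so its member and list counts are not given. Without Aal-2 the rises of *Dmc1* and *Psmc3ip* in A3 against Aal were 0.89 and 0.94, under the fold threshold.

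Replicate numbers recur across groups. Deviations of same-numbered libraries from their group means had correlations of -0.334 to 0.081, with no other pairs set beside them. Whether the numbers pair the samples was not settled by this, and the main tests treat the libraries as unpaired. With the replicate block, 2 members were called in A1 against Aal, *Dmc1* and *Psmc3ip*, and *Msh4* in A3 against Aal had an adjusted p of 0.0137. Of all genes, 424 were called in A1 against Aal, but 670 with a pseudocount of 0.1, 731 with voom and 211 without Aal-2. In A3 against A1 the count was 69, but 152, 199 and 39 with the pseudocount, voom and the block, and 26 to 111 over libraries left out. In A3 against Aal it was 823, and 538 with a minimum of 5 FPKM. With no fold threshold the counts were 1252, 349 and 2048. With only 2 libraries, Aal limits every comparison with Aal.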
